A study of Mus musculus with 4 samples.

Results

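Cytochrome P450 enzymes of families 1 to 4 oxidise many drugs and pollutants in the liver, along with steroids and some fatty acids, and their DNA methylation was compared here between mice with and without Pnpla7. The genes were chosen by name: all protein-coding genes of the mm10 RefSeq annotation whose symbol starts with Cyp1, Cyp2, Cyp3 or Cyp4 and a letter, which gave 80 of 21887 genes. They comprise 3 genes of family 1, 48 of family 2, 9 of family 3 and 20 of family 4. Pnpla7 encodes a lysophospholipase that breaks down lysophosphatidylcholine. Methylation was read by reduced representation bisulfite sequencing, which covers cytosines near restriction sites, in the whole liver of C57BL6/N mice aged 6 weeks. The WT libraries (2) came from Pnpla7+/+ mice and the KO libraries (2) from Pnpla7-/- mice. The labels state neither the sex nor the deleted part of Pnpla7, nor whether each library is a separate animal, so the tests measure the spread between these libraries only.

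P450s are heme enzymes of the endoplasmic reticulum that insert an oxygen atom into their substrate, with electrons supplied by the reductase Por. Their genes lie in tandem clusters that differ between species, and many are transcribed almost only in hepatocytes. The nuclear receptors and the aryl hydrocarbon receptor that sense foreign chemicals switch on separate subsets of them. Methylation of CpGs at CpG-rich gene starts is a mark of silenced genes, whereas CpGs within genes and between them are methylated in most tissues.

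The WT libraries had 50413170 (replicate 1) and 59437109 (replicate 2) cytosine reads, and the KO libraries 59953688 and 60535892. Methylation level means the percentage of reads that were methylated, and a CpG was analysed where each library had at least 10 reads. At the analysed P450 CpGs the median depth was 21 and 25 reads in WT and 24 and 25 in KO. The 113 CpGs listed in Pnpla7 held 1429 and 1732 reads in WT and 1734 and 1749 in KO, which does not check the genotype, since the deleted part is not named. Reads over 4 genes of the Y chromosome, all of them in Uty, numbered only 9 and 3 in WT and 12 and 13 in KO, while those over the whole Y chromosome (25072 and 31676 in WT, 35136 and 19953 in KO) and over the X-linked Kdm5c (1104 and 1352 in WT, 1417 and 1330 in KO) overlapped between the genotypes. In whole tissue, a changed share of a cell type and a change within its cells cannot be told apart.

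The 80 genes and 5 kb on either side held 2505 listed CpGs, of which 1094 were analysed, out of 1600691 analysed CpGs in the genome. An analysed CpG was present at 75 of the genes, with a median of 9 over all 80 and a maximum of 87 at Cyp2u1. For 66 genes there were at least 3, enough for a test of the whole region, meaning gene body and 5 kb on either side. The 9 genes with only 1 or 2 were Cyp2a4, Cyp2a5, Cyp2a12, Cyp2c29, Cyp2c65, Cyp4a12b, Cyp4a14, Cyp4a30b and Cyp4a32. None was analysed at Cyp2b23, Cyp2c54, Cyp2d9, Cyp2j12 and Cyp4a10, so nothing can be said here of the male-specific steroid hydroxylase Cyp2d9 or of Cyp4a10, a fatty acid hydroxylase induced through Ppara. Neighbouring genes shared 16 of the 1094 CpGs.

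The limited coverage is visible in the promoter sequences. RefSeq promoters (GRCm38, 250 bases before to 50 after the start) were found for 66 of the 80 genes, 73 promoters in all. These held a median of 2 CG dinucleotides per 300 bases, against 13 over 21263 promoters of protein-coding genes, and 5 of the 73 (6.85%) had at least 10, against 56.8% of all. A cutting site of MspI (CCGG) or TaqI (TCGA) occurred in 21 (28.8%), against 68.6% of all. An analysed CpG lay in 10 (13.7%), against 52.2% of all. The 250 bases upstream of the start are shown for 8 genes, on the strand of the gene and 5′ to 3′, with each CG in capitals, because they show the range from CpG-rich and unmethylated to CpG-poor and unread. Cyp4v3 (chr8:45333164-45333413, minus strand), Cyp2r1 (chr7:114562973-114563222, minus) and Cyp2s1 (chr7:25816526-25816775, minus) hold 17, 16 and 15 CGs. Cyp4f39 (chr17:32452473-32452722, plus) holds 10, Cyp2w1 (chr5:139352366-139352615, plus) 5 and Cyp1a1 (chr9:57697363-57697612, plus) 3. Cyp2e1 (chr7:140763569-140763818, plus) and Cyp3a11 (chr5:145879855-145880104, minus) hold 2 each.
Cyp4v3: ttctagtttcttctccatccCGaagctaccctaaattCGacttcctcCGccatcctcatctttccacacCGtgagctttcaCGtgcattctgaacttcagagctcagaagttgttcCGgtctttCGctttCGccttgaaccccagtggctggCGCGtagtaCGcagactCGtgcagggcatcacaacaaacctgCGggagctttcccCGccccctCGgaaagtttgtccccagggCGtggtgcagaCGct
Cyp2r1: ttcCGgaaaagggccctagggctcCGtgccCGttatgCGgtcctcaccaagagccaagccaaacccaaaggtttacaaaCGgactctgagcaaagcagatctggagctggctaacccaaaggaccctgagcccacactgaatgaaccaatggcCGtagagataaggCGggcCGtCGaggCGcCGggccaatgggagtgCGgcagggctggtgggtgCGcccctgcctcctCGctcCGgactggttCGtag
Cyp2s1: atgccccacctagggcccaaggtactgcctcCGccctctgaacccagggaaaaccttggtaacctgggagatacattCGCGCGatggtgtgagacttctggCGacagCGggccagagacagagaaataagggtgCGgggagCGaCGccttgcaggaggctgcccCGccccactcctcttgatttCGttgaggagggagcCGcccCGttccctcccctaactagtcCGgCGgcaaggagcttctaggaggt
Cyp4f39: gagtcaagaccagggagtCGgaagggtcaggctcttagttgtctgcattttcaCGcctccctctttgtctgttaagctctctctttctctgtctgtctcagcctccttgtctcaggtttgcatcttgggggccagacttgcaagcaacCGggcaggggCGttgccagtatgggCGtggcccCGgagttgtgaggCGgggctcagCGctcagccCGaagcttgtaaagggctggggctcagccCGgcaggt
Cyp2w1: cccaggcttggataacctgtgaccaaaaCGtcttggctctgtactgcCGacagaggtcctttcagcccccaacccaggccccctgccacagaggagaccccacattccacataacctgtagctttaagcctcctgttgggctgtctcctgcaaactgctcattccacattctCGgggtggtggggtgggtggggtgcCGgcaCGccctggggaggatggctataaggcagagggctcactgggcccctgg
Cyp1a1: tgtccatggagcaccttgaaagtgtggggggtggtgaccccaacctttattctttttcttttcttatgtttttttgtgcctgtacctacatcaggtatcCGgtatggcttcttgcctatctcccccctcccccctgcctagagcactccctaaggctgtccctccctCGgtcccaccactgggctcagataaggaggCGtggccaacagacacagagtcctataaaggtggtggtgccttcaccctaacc
Cyp2e1: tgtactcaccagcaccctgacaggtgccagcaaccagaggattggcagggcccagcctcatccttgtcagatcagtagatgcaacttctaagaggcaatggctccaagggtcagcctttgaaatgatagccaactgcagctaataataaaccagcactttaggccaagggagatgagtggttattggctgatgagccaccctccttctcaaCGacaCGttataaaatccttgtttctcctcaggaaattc
Cyp3a11: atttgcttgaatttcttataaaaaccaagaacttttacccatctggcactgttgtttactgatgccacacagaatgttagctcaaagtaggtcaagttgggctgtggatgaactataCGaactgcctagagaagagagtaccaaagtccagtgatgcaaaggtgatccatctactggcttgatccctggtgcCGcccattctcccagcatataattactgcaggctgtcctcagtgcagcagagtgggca

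Read together with these sequences, the CpG-rich starts were close to unmethylated in every library. Over the 12 analysed CpGs of the Cyp4v3 promoter, which encodes a fatty acid hydroxylase, the level was 0.926% and 0.22% in WT and 0.471% and 0.23% in KO. The promoter of Cyp2r1, the hydroxylase that activates vitamin D in liver, stood at 4.8% and 1.33% in WT and at 0.73% and 0% in KO over 6 CpGs. That of Cyp2s1, a P450 of epithelia, stood at 3.13% and 1.32% against 2.67% and 0% over 4. None of these separated the genotypes by more than a few points.

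With 10 CGs, the promoter of Cyp4f39, an ω-hydroxylase of very long fatty acids in skin, was slightly methylated, at 11.3% and 11.0% in WT and 9.58% and 9.15% in KO. The promoter of Cyp2w1, a P450 of fetal colon and of tumours, was methylated at its 2 analysed CpGs, at 87.5% and 89.3% in WT and 87.5% and 86.0% in KO. A single CpG was analysed in the Cyp1a1 promoter, 151 bases before the start, and was intermediate, at 47.2% and 60.5% in WT and 57.4% and 59.3% in KO. Nothing was read in the promoters of Cyp2e1 and Cyp3a11, which lack both cutting sites in the bases shown.

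The core of the response element bound by the aryl hydrocarbon receptor, GCGTG on either strand, occurred in 15 of the 73 promoters (20.5%), against 38.5% of all promoters. The part of CG content in this share was not tested, and the core itself contains a CG. At the Cyp2w1 promoter its CpG, 48 bases before the start, was methylated at 100% and 92.9% in WT and 94.4% and 88.0% in KO, whereas at Cyp2r1, 41 bases after the start, it stood at 0% and 3.13% in WT and at 0% in both KO libraries. A match to these letters is a description and no evidence of binding.

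Wider windows reached 1 kb on either side of the upstream edge of the annotated gene span, which is called the start in this paragraph. At some genes that edge is not the RefSeq promoter start, as at Cyp1a1 (57687928 against 57697613) and Cyp2j6 (96564305 against 96553651). Their nearly unmethylated tiles at or before the promoter start were therefore not counted. In these windows 13 P450 genes had at least 3 analysed CpGs, and the strand was known for 66 of the 80 genes. Of these starts 6 (46.2%) were below 20% and 4 (30.8%) above 80% methylation in WT, whereas 83.3% of 11351 starts of all genes were below 20% and 5.37% above 80%. Within 500 bases before the start, 30 CpGs of 6 P450 genes averaged 12.6% and 13.9% in WT and 14.1% and 12.9% in KO, against 4.14% in WT over all genes. Of these, 20 belong to Cyp4v3, at 0.104% to 0.975%, while the means of the other genes ranged from 0% to 100%. Farther out, from 0.5 to 1 kb before the start, 5 P450 CpGs, 3 of them of Cyp2c55, averaged 92.7% in WT, against 16.5% over all genes. Between 0.5 and 1 kb after the start, 22 CpGs of Cyp2a22, Cyp3a11, Cyp4b1, Cyp4f14 and Cyp4f40 averaged 64.0% and 59.2% in WT and 73.3% and 71.5% in KO. The KO libraries were the higher there, by 10.8 points on average, which was not tested. Not all of these genes took part: Cyp3a11 overlapped, at 19.2% and 20.3% in WT and 20.5% and 15.3% in KO. Cyp4f40 differed little, at 86.5% and 87.4% in WT and 90.6% and 89.9% in KO. The 5 CpGs of Cyp4f14 in this stretch also belong to the Cyp4f14 tile described below.

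**Figure D1:**
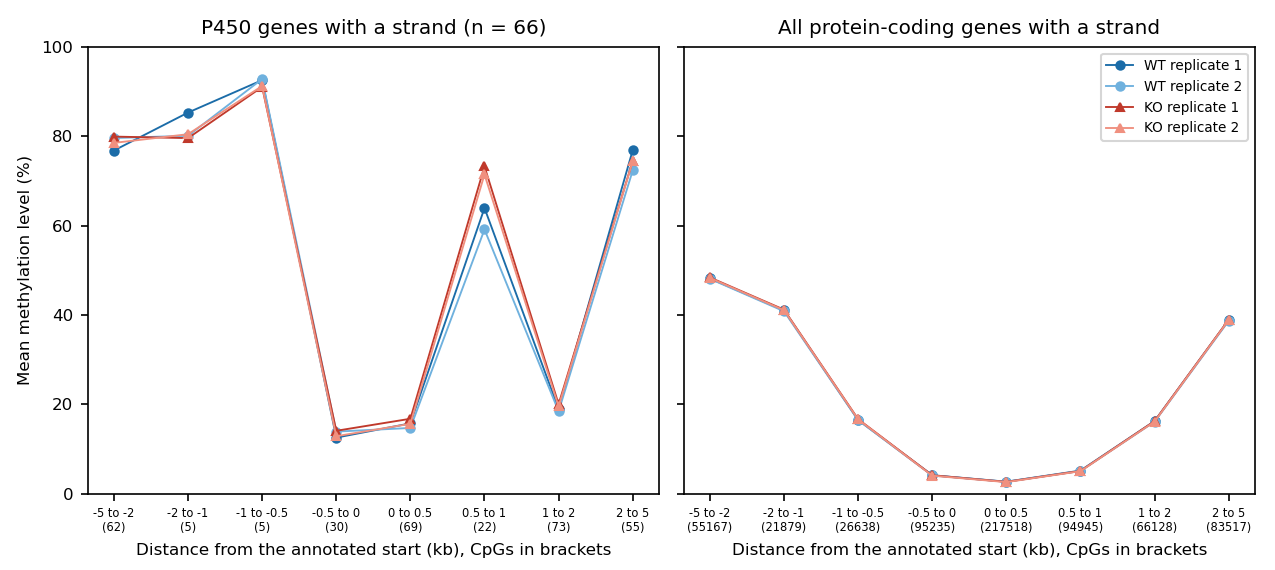
Mean methylation level (%) of analysed CpGs by distance (kb) from the start, taken as the upstream edge of the annotated gene span. P450 genes are on the left and all protein-coding genes on the right, with 1 line per library and the number of CpGs in brackets. The P450 lines lie below 20% within 500 bases of the start, where 20 of the 30 CpGs before it belong to Cyp4v3. They lie between 18.5% and 20.1% from 1 to 2 kb, where 48 of the 73 CpGs belong to Cyp1b1. The KO lines lie above the WT lines from 0.5 to 1 kb.

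The mean level over the 1094 P450 CpGs was 59.4% and 58.7% in WT and 59.7% and 59.5% in KO. The libraries of the genotypes did not overlap, and the difference was 0.488 points (WT 59.1% ± 0.461, KO 59.6% ± 0.134, SD, n = 2 each; exact permutation test, two-sided, p = 0.333, the smallest this design allows). Over all CpGs of the genome the means were 44.8% in WT and 45.2% in KO. Weighted by reads, the P450 difference turned to -0.872 points, so its direction depended on the weighting. P450 CpGs were more often highly methylated than CpGs at large, with 49.4% of them above 80% against 36.4%, and 28.2% below 20% against 45.0%. They also lay in CpG-poorer sequence: 13.7% had 20 or more listed CpGs within 250 bases, against 35.9% of all CpGs.

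No P450 feature was called different between the genotypes. A feature counted as called where its adjusted p was under 0.05 and its genotypes were 10 or more points apart. The adjusted p came from a moderated quasi-binomial model of the read counts, with the spread shrunk by limma and the Benjamini-Hochberg adjustment made over all features of a kind in the genome. Among gene regions 0 of 66 were called (background 0% of 18465), with 2 at an unadjusted p under 0.05 in this model (3.03%; background 4.28%) and 5 in limma on log2 ratios (7.58%; background 4.98%), which also called 0 (background 0%). Among 1-kb tiles with at least 3 analysed CpGs it was 0 of 141 (background 0.0788% of 163610), with 12 at an unadjusted p under 0.05 in the model (8.51%; background 5.78%) and 14 in limma (9.93%; background 5.66%). For windows of 1 kb around gene ends it was 0 of 25 (background 0.005%), with 4 in either test (16%; background 6.01% in the model and 5.65% in limma). For single CpGs it was 0 of 994 (background 0.00807%), with 56 in the model (5.63%; background 4.01%) and 68 in limma (6.84%; background 5.23%), which called 1 (background 0.0303%). Of the remaining 100 CpGs, with only methylated or only unmethylated reads, none could be tested. The kinds of feature share reads, so their counts are not separate results. Among the 4 gene-end windows in the model, those of Cyp4f14, Cyp4f13 and Cyp2e1 held the same CpGs and reads as a tile.

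Libraries of the genotypes did not overlap in 19 of the 66 regions (28.8%; background 32.9%), 10 of them higher (background 15.9%) and 9 lower (background 17%) in KO, which is near the background. Tiles whose libraries did not overlap numbered 57 of 141 (40.4%; background 34.5%), 39 higher (background 19.5%) and 18 lower (background 14.9%). For gene-end windows it was 13 of 25 (52%; background 35.1%), 9 higher (background 18.3%) and 4 lower (background 16.8%), and for CpGs 289 of 994 (29.1%; background 27.2%), 165 higher (background 14.6%) and 124 lower (background 12.7%). In all, 86 tiles were higher and 55 lower in KO, the median difference being 1 point, against 0.177 over all tiles. A difference of at least 10 points occurred in 10 tiles (7.09%), 8 higher and 2 lower, against 4.04% of all tiles. Regions gave 38 higher and 28 lower, with a median of 0.921 points, against -0.077 over all genes. The differences ranged from -9.41 to 10.7 points for regions and from -17.2 to 19.6 for tiles.

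**Figure D2:**
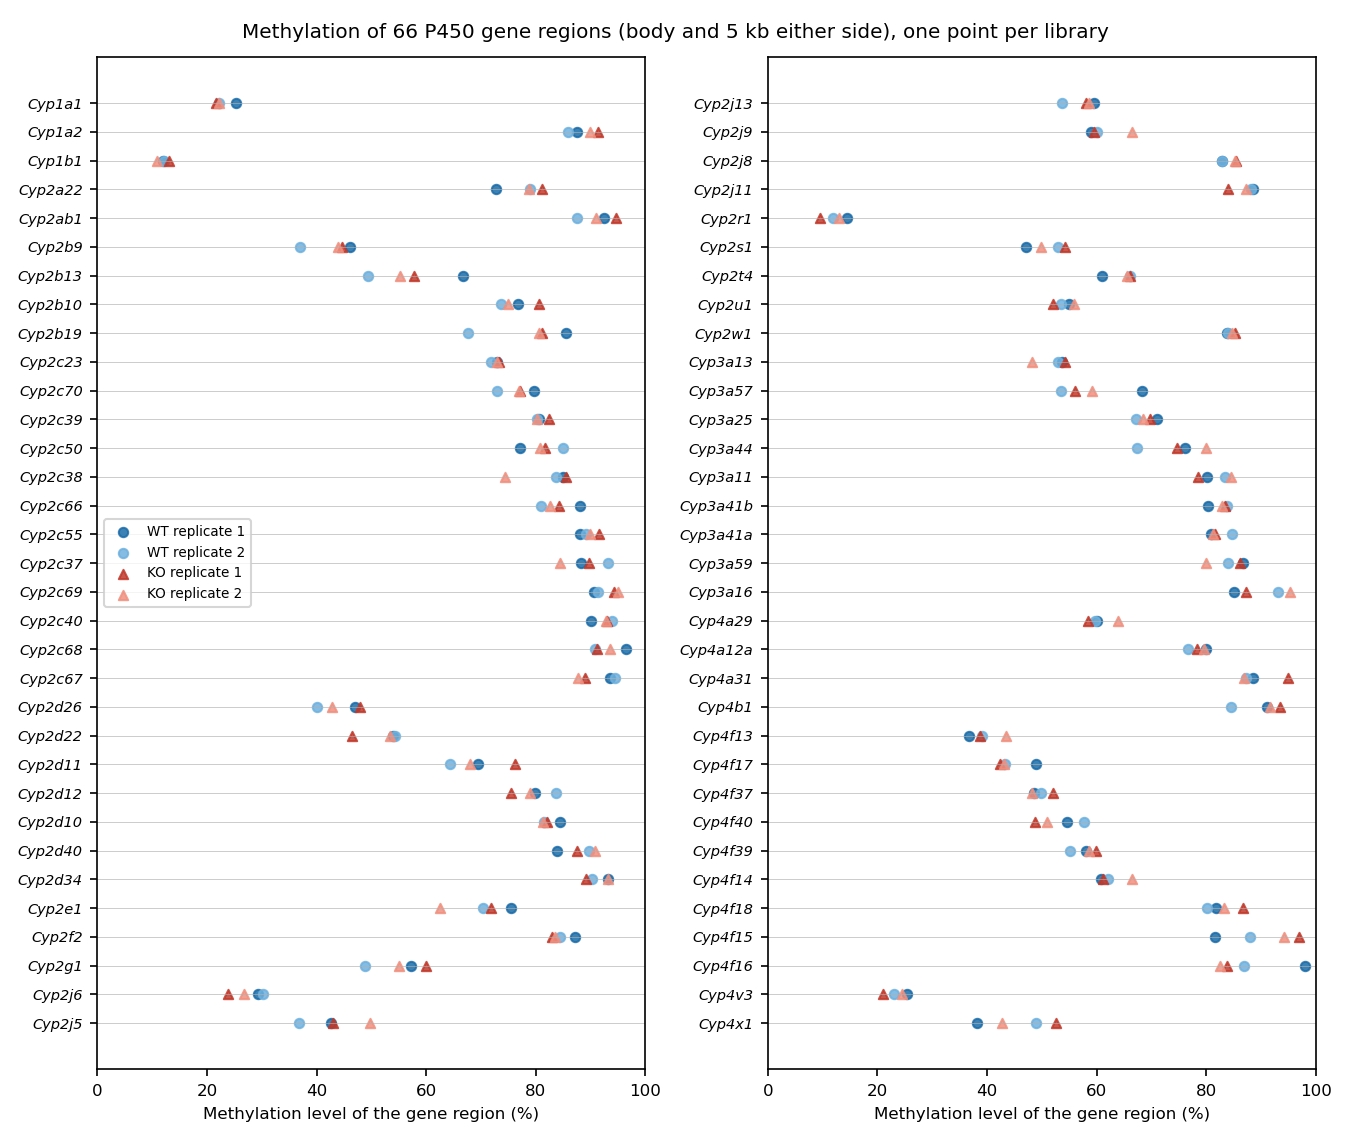
Methylation level (%) of the 66 P450 gene regions, ordered by family, subfamily and WT level, with 1 point per library (circles WT, triangles KO). The spread between genes, from about the level of Cyp1b1 and Cyp2r1 (below 20%) to that of Cyp2c67 (above 80%), is far wider than the spread between the 4 libraries of a gene.

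In family 1, whose members oxidise planar aromatic compounds and estrogens, 1 region was higher and 2 were lower in KO. The region of Cyp1b1, which is expressed mainly outside the liver, was at 11.9% and 12.2% in WT and 13.1% and 10.8% in KO. Its tile of 48 CpGs, 1061 bases inside the gene from the start (chr17:79713001-79714000), was almost unmethylated at 2.71% and 2.97% in WT and 2.92% and 1.83% in KO. The libraries of the genotypes overlapped in both.

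Cyp1a1, the enzyme most strongly induced through the aryl hydrocarbon receptor, is little transcribed in untreated liver, and response elements of that receptor lie upstream of its start. The tile that ends 613 bases before its start (chr9:57696001-57697000, 23 CpGs, within the annotated gene span) was nearly unmethylated at 4.25% and 2.43% in WT and 2.79% and 3.09% in KO. The next tile, which holds the start, was intermediate at 40.0% and 39.2% in WT and 42.3% and 46.6% in KO, and the tile from 57702001 in the gene was at 89.8% and 92.2% in WT and 86.7% and 89.6% in KO. All 4 libraries thus shared the step from an unmethylated upstream tile to a methylated gene. A further tile counted here, from 57708001 and 4177 bases beyond Cyp1a1, overlaps the neighbouring gene Edc3 and was below 1% in each library.

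Cyp1a2, the caffeine-metabolising enzyme that is constitutively high in liver, was the family member with the most separated libraries. Its region stood at 87.5% and 85.9% in WT and 91.4% and 89.9% in KO, a difference of 3.96 points (adjusted p = 0.996, moderated quasi-binomial model). In the tile at chr9:57681001-57682000, inside the gene and 1655 bases from its start, the level was 84.3% and 80.8% in WT and 90.2% and 89.1% in KO. The KO libraries were the higher, in the tile and at each of its 8 CpGs. This tile was named for its small p, and its CpGs make up its value. Their agreement is therefore no separate support, here or at the other tiles so named. The tile's difference of 7.08 points (adjusted p = 0.35, moderated quasi-binomial model) did not pass.

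Among the family 2 genes, 39 regions were tested, 23 higher and 16 lower in KO (median difference 0.914 points). Cyp2r1 had the lowest level of these regions, at 14.4% and 11.9% in WT and 9.48% and 13% in KO. Cyp2u1, a fatty acid hydroxylase of brain and thymus, held both low and high tiles: a tile of 20 CpGs (chr3:131303001-131304000) was at 5.96% and 2.67% in WT and 2.52% and 3.67% in KO, while a tile of 21 CpGs (chr3:131298001-131299000) was at 86.8% and 87.3% in WT and 89.8% and 87.3% in KO. Neither separated the genotypes. Cyp2w1 was high over its region, at 83.8% and 84.0% in WT and 85.2% and 84.8% in KO, apart from a tile of 4 CpGs from 139355001 at 45.3% and 46.9% in WT and 52.4% and 57.9% in KO. Cyp2s1 was mixed, at 47.2% and 52.9% in WT and 54.2% and 49.9% in KO over its region, with 1 tile of 11 CpGs close to unmethylated and its other 2 tiles above 75%.

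The Cyp2c genes, which encode drug and steroid hydroxylases and arachidonic acid epoxygenases, lie on chromosome 19, all but Cyp2c23 in 1 cluster, and were highly methylated at most CpGs. Their 131 analysed CpGs averaged 83.6% and 83.2% in WT and 83.8% and 83.5% in KO. By their mean over all 4 libraries, 104 of them were above 80%, 21 between 20% and 80% and 6 below 20%. Of the 12 tested Cyp2c regions, 7 were higher and 5 lower in KO. Cyp2c67 had the largest negative difference among them, at 93.5% and 94.4% in WT and 88.9% and 87.6% in KO. Both KO libraries were the lower, and the difference of -5.68 points did not pass the test (adjusted p = 0.996, moderated quasi-binomial model). For Cyp2c29, an abundant member in mouse liver, only 2 CpGs were analysed. That at position 39316157 was at 92.9% and 100% in WT and 83.3% and 80% in KO with 14 to 18 reads, and the other overlapped between genotypes.

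Cyp2b10 is the classical target of the receptor Nr1i3 and responds to phenobarbital. Its region as a whole overlapped between genotypes, at 76.7% and 73.7% in WT and 80.5% and 75% in KO. A tile outside the gene (chr7:25892001-25893000), overlapping the RefSeq gene Gm51461, has its near edge 4658 bases before the start of Cyp2b10. It differed more, at 20.4% and 24.7% in WT and 48.2% and 36.1% in KO. The tile was counted because it overlaps the outer limit of the 5 kb before the gene. In WT replicate 1 it held 137 reads at 20.4%, against 172 at 76.7% over the whole region. Not all of its CpGs can therefore lie in the Cyp2b10 region. All 4 CpGs of the tile were higher in both KO libraries than in either WT library, by 11.2 to 39.9 points. Those CpGs make up the tile, which was named for its small p, and are no separate support. The tile's difference of 19.6 points was the largest among the P450 tiles and did not pass (WT 22.6% ± 3, KO 42.2% ± 8.55, SD, n = 2 each; adjusted p = 0.176, moderated quasi-binomial model with limma). Without KO replicate 2, the lower of the KO libraries, it was 25.7 points (adjusted p = 0.0214, with the single KO library assumed to vary like the WT libraries and like other tiles), and without KO replicate 1 it was 13.6.

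Cyp2e1, which oxidises ethanol and acetaminophen, had the tile with the largest negative difference. Over its region the level was 75.4% and 70.4% in WT and 71.9% and 62.6% in KO, which overlap, and the difference of -5.68 points became -1.02 without KO replicate 2. The tile at its annotated end (chr7:140774001-140775000, the gene ending at 140774990) was at 48% and 46.5% in WT and 34.6% and 25.6% in KO. All 7 of its CpGs were lower on average in KO, with differences from -7.32 to -34.1 points, and 5 of them without overlap. These CpGs make up a tile named for its small p, so their agreement is no separate support. The tile's difference of -17.2 points did not pass (WT 47.2% ± 1.09, KO 30.1% ± 6.38, SD, n = 2 each; adjusted p = 0.337, moderated quasi-binomial model with limma). The next tiles, which overlap the neighbouring gene Syce1, were not lower in KO: the tile from 140777001 was at 86.6% and 87.0% in WT and 94.4% and 87.7% in KO.

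**Figure D3:**
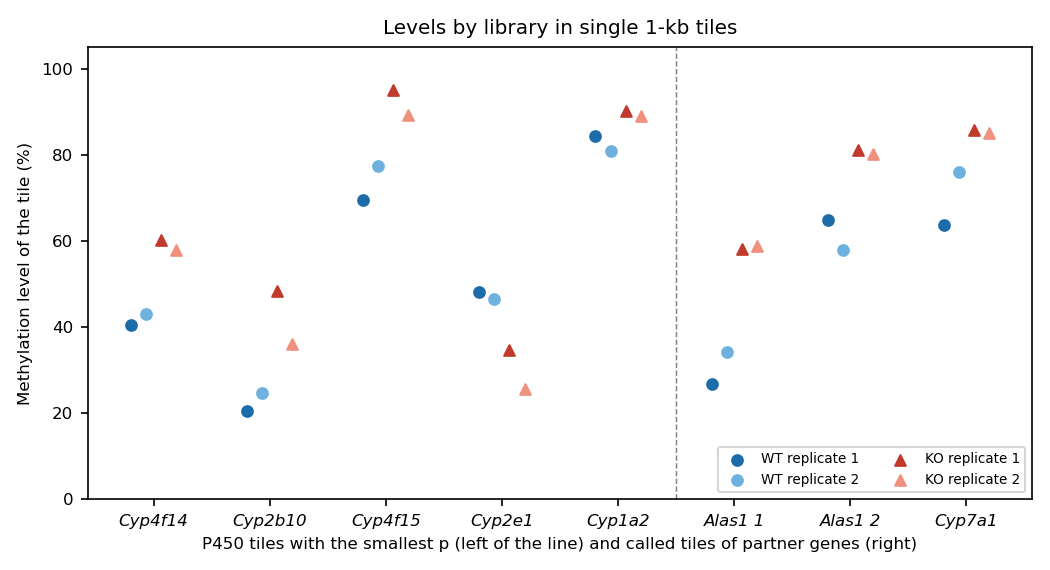
Methylation level (%) of single 1-kb tiles by library (circles WT, triangles KO): the 5 P450 tiles with the smallest p, left of the line, and the called tiles of Alas1 and Cyp7a1, right of it. In each of the 8 tiles the KO libraries lie on 1 side of both WT libraries, below them only for Cyp2e1.

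The Cyp2d genes, whose human counterpart metabolises many drugs, averaged 69.7% and 69.5% in WT and 68.4% and 68.9% in KO over 77 CpGs, with 3 regions higher and 4 lower. Cyp2d22 had a run of tiles that were lower on average in KO, though at those from 82369001 and 82372001 the genotypes overlapped. Its tile from 82374001 (chromosome 15, 8 CpGs) was at 76.6% and 78.0% in WT and 69.3% and 65.6% in KO. All 8 CpGs of that tile were lower on average, 2 of them without overlap. Its tile from 82373001 was at 93.3% and 100% in WT and 76.3% and 89.9% in KO, with as few as 30 reads in a library, and the CpG-rich tile at one end of the gene, from 82380001, stayed between 0.467% and 2.42%. Neither difference passed the test. Cyp2d12 was at 79.8% and 83.7% in WT and 75.5% and 79.0% in KO, which did not pass either, and Cyp2d11 overlapped, at 69.4% and 64.3% in WT and 76.2% and 68.0% in KO. All 8 Cyp2d genes lie in the stretch of chromosome 15 (73474421 to 86723329) that holds 34 of the 36 CpGs at which WT was at or below 10% and KO at or above 70%. None of those CpGs lies in a Cyp2d region, and the part of that stretch in the Cyp2d values was not tested.

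In the Cyp2j group, epoxygenases of arachidonic acid, Cyp2j5 had the largest positive region difference, 6.76 points, at 42.6% and 36.7% in WT and 43.1% and 49.8% in KO, which did not pass. It was 3.39 points without KO replicate 2, 3.81 without WT replicate 2 and 10.1 without KO replicate 1. A single CpG inside the gene, at position 96637726 on chromosome 4, was at 23.1% and 30.8% in WT and 81.3% and 85.7% in KO, with 13 to 16 reads per library. That difference of 56.6 points was the largest at any of the 994 tested CpGs. It did not pass in the moderated quasi-binomial model (adjusted p = 0.543) and passed in limma on log2 ratios (adjusted p = 0.0121). Beside its start, the tile from 96663001 was low, at 3.53% and 4.88% in WT and 10.4% and 6.72% in KO.

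Of the other family 2 genes, Cyp2f2, which bioactivates naphthalene in lung and liver, was at 87.2% and 84.4% in WT and 83.0% and 83.5% in KO. Both KO libraries were the lower, with a difference of -2.58 points. Cyp2a5, the coumarin hydroxylase, had only 2 analysed CpGs in the region, and at both the genotypes overlapped. The first stood at 80.8% and 69.0% in WT and 92.3% and 77.3% in KO.

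Family 3, the Cyp3a steroid and drug hydroxylases, which lie on chromosome 5 in 1 cluster with Cyp3a13 apart from it, had all of its 9 regions tested, 3 higher and 6 lower in KO, and none without overlap of the genotypes. Its 72 CpGs averaged 74.8% in each WT library, and 74.4% and 75% in the KO libraries. Cyp3a11, the main constitutive member and a target of the receptor Nr1i2, was at 80.1% and 83.4% in WT and 78.4% and 84.5% in KO. Cyp3a13, expressed in gut and liver, was at 53.7% and 52.9% in WT and 54.2% and 48.2% in KO. Cyp3a44 had the largest difference of the family, 5.54 points, at 76.2% and 67.4% in WT and 74.7% and 80% in KO. The WT libraries differed from each other by more than that.

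Family 4 enzymes hydroxylate fatty acids and leukotrienes at their end. Here 15 regions were tested, 11 higher and 4 lower in KO (median difference 2.37 points). Cyp4f15 had the largest difference of all 66 regions, at 81.7% and 87.9% in WT and 96.9% and 94.2% in KO. Both KO libraries were the higher, by 10.7 points on average (adjusted p = 0.996, moderated quasi-binomial model), which did not pass, and with 10 kb on either side the difference became -0.65. Its tile at chr17:32698001-32699000, within the gene, was at 69.6% and 77.3% in WT and 94.9% and 89.1% in KO over 3 CpGs (a difference of 18.6 points; adjusted p = 0.305, same model). Cyp4f16, in the same cluster, had the largest negative difference, -9.41 points, at 98.0% and 87.0% in WT and 83.7% and 82.4% in KO. That difference became -3.9 points without WT replicate 1, -1.67 when CpGs with at least 5 reads were analysed, and 0.537 with 10 kb on either side.

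Cyp4f14, which inactivates leukotriene B4 and is abundant in mouse liver, held the P450 tile with the smallest adjusted p. The tile lies inside the gene, 356 bases from its start (chr17:32916001-32917000), and was at 40.4% and 43.1% in WT and 60.1% and 57.9% in KO. All 6 of its CpGs were higher on average in KO, by 6.19 to 36.6 points, and 4 of them without overlap. As the tile was named for its small p, the agreement of its own CpGs is no separate support. The difference of 17.3 points exceeded the spread between libraries of a genotype (WT 41.7% ± 1.90, KO 59.0% ± 1.55, SD, n = 2 each) and did not pass over all tiles (adjusted p = 0.153, moderated quasi-binomial model with limma). Elsewhere in the gene the direction was mixed: the tile from 32905001 was at 70.4% and 76.2% in WT and 59.9% and 69.7% in KO. The whole region overlapped between the genotypes, at 60.8% and 62.0% in WT and 61.1% and 66.4% in KO.

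The other Cyp4f genes share the cluster on chromosome 17, apart from Cyp4f18 on chromosome 8. Cyp4f40 was at 54.6% and 57.8% in WT and 48.7% and 50.9% in KO, a difference of -6.38 points with no overlap that did not pass. At its annotated end a tile was at 22.9% and 22.5% in WT and 19.5% and 14% in KO. Cyp4f13 was almost unmethylated around its start, at 1.78% and 2.73% in WT and 4.72% and 7.39% in KO. On average over the 7 CpGs there, each KO library was higher by a few points. This did not pass (adjusted p = 0.783, moderated quasi-binomial model) and was under the 10 points that a call also required. A single CpG of these 7, at position 32947043, was at 5.26% and 16.7% in WT and 46.2% and 50% in KO, with 12 to 19 reads. It did not pass (adjusted p = 0.782, moderated quasi-binomial model). The CpGs from 32947330 to 32947396 were at 3.85% or less in each library.

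Cyp4b1, a fatty acid and xenobiotic hydroxylase of lung and kidney, was at 91.1% and 84.6% in WT and 93.4% and 91.6% in KO, a difference of 4.72 points that did not pass. Without WT replicate 2 the difference was 1.47 points, and with at least 20 reads per CpG it was -1.41. Cyp4x1, expressed mainly in brain, overlapped between genotypes at 38.1% and 48.9% in WT and 52.5% and 42.7% in KO. Its tile from 115133001, at one annotated end, was at 0% in both WT libraries and at 2% and 0% in KO, with as few as 50 reads. Cyp4v3 had a low region level of 25.4% and 23.1% in WT and 21.1% and 24.5% in KO. Of the Cyp4a fatty acid hydroxylases, targets of Ppara, 3 of 8 regions were tested and all were higher on average in KO, and the 29 analysed CpGs of the subfamily differed by 1.44 points. Cyp4a14, a strongly inducible member, had 2 analysed CpGs and overlapped at both, the first being at 83.3% and 90.3% in WT and 76.2% and 93.3% in KO.

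**Figure D4:**
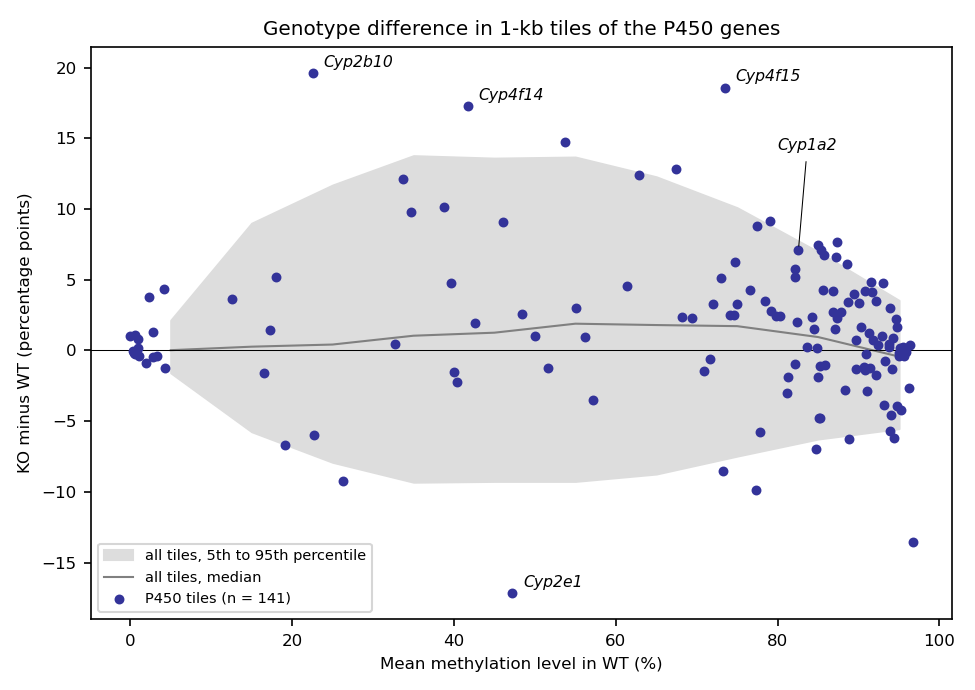
KO minus WT difference (percentage points) against mean WT level (%) for the 141 P450 tiles (points), over the median and the 5th to 95th percentile of all 163610 tiles (line and grey area). The 5 tiles with the smallest p are named; Cyp2b10, Cyp4f14 and Cyp4f15 lie above the grey area and Cyp2e1 below it.

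Several P450 genes are expressed mainly in male or in female mouse liver, under the control of growth hormone. Of 10 such genes (Cyp2d9, Cyp4a12a and Cyp4a12b, higher in males, and Cyp2a4, Cyp2b9, Cyp2b13, Cyp3a16, Cyp3a41a, Cyp3a41b and Cyp3a44, higher in females), 7 had a tested region. Of these 5 were higher and 2 lower in KO, from -1.62 to 5.54 points, and none had an unadjusted p under 0.05 in the moderated model (background 4.28% of all regions). Cyp2b13 varied most between the WT libraries, at 66.8% and 49.4%, against 57.8% and 55.2% in KO.

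Genes that work with the P450s were examined by lists. Among 19 transcriptional regulators of P450 genes, 12 regions were higher and 7 lower in KO, with a median of 0.834 points. None was called, and 3 of the 19 had an unadjusted p under 0.05 in the moderated model (background 4.28% of all regions). Of their 250 tiles 0 were called (background 0.0788% of all tiles). Hnf4a, a hepatocyte factor required for many P450 genes, was at 54.7% and 51.7% in WT and 58.4% and 56.3% in KO, and Nr3c1, the glucocorticoid receptor, at 8.38% and 8.45% in WT and 7.28% and 6.65% in KO. Among 35 conjugation and other drug-processing genes 28 regions were tested, 18 higher and 10 lower, with 0 called and 0 at an unadjusted p under 0.05, and 0 of 86 tiles called. Among the P450s of other families, 8 regions were higher and 10 lower, with 0 called and 1 at an unadjusted p under 0.05 (background 4.28%). Of their 113 tiles 1 was called (background 0.0788%). That tile lies in Cyp7a1, which starts bile acid synthesis (chr4:6272001-6273000), and was at 63.6% and 75.9% in WT and 85.7% and 85.1% in KO (adjusted p = 0.00613; without WT replicate 1 the difference was 9.47 points and was not called).

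Of 8 genes for electron transfer to P450s and for heme supply, 4 regions were higher and 4 lower in KO. Of these 0 were called and 1 had an unadjusted p under 0.05 (background 4.28% of all regions). That was Alas1, the rate-limiting enzyme of heme synthesis in liver, whose region was at 26.8% and 26.5% in WT and 34.3% and 35.2% in KO. Of this list's 65 tiles 2 were called (background 0.0788% of all tiles), and both lie inside Alas1. The tile at chr9:106237001-106238000 was at 26.8% and 34.1% in WT and 58.2% and 58.8% in KO. Each KO library was far above both WT libraries, by 28.0 points on average (adjusted p = 0.000661, moderated quasi-binomial model with limma), and 5 of the 6 CpGs were higher. The tile at chr9:106241001-106242000 was at 64.9% and 57.9% in WT and 81.0% and 80.2% in KO, higher by 19.2 points (adjusted p = 0.00443) and at 8 of 9 CpGs. Without WT replicate 2 the latter was 15.8 points and was not called (adjusted p = 0.226). In limma on log2 ratios none of the 3 tiles of Alas1 and Cyp7a1 passed (adjusted p = 0.88). The CpGs of the Alas1 tiles make up the called values, so their agreement is no separate support.

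Markers of the cell types of liver were measured in the same way. Of the 5 hepatocyte genes (Alb, Apoa1, Cps1, Serpina1a, Ttr) 4 regions were higher and 1 lower in KO, with a median of 2.72 points. Alb was at 53.2% and 45.1% in WT and 55.5% and 51.5% in KO. The 5 leukocyte and Kupffer cell genes gave 2 higher and 3 lower (median -0.129), the 4 endothelial genes 2 and 2 (-0.252), the 4 stellate and fibroblast genes 2 and 2 (-0.416) and the 4 cholangiocyte genes 2 and 2 (1.24). Libraries of the genotypes did not overlap at 2 hepatocyte genes, Serpina1a (higher in KO) and Ttr (lower). The same held for 2 stellate and fibroblast genes, 1 cholangiocyte gene and 0 of the other types (background 32.9% of all regions). None of these regions was called or had an unadjusted p under 0.05 in the moderated model. The part of cell composition in the P450 differences was not tested.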

How the data were processed

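DNA of mouse liver was cut with TaqI and MspI and sequenced as bisulfite-converted reduced representation libraries, per the labels' protocols. For each library the authors deposited a track of methylation levels (a fraction, with a minus sign on the reverse strand) and a track of read depth, made by the program GBSA on mm10, per the file headers. BWA 0.7.12 and MACS appear in the submitters' processing notes, with no role. Level times depth was whole, within 1e-06, at all positions, which gave methylated reads.

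The strands of a CpG were summed, and a CpG was kept where each library had 10 reads or more. For 5 methylated of 10 reads the interval (95%, exact, Clopper-Pearson) is 18.7% to 81.3%; amplified reads are not independent, so this covers counting error only. Gene positions came from RefSeq (GRCm38.p6), and strands and promoter sequences from its promoter file. Regions, 1-kb tiles and gene-end windows needed 3 analysed CpGs.

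Each feature was fitted with a quasi-binomial model of genotype over all 4 libraries, with the dispersion shrunk by limma 3.58.1 in R 4.3.3 and a two-sided quasi-likelihood F test. The prior for the spread was estimated where the binomial variance reached 5 reads in all libraries, a choice made with earlier counts of calls in these data known, and a prior from all features was an alternative. The model was also run on simulated reads, with an outcome that is not given here. Those reads were drawn with the model's own fitted spread, so they cannot show how it behaves on these libraries. Files were read with version 1.17.8 of the data.table package, and figures were drawn with pandas 2.3.3 and matplotlib 3.10.9.

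The genes named are those with a called feature, the 5 regions with the largest difference each way, the 5 tiles with the smallest p, 23 P450s of known roles and the called partner genes with up to 2 more of a list. The members, lists and tests were chosen with earlier results of these data known. Cyp4f13, Cyp4f39, Cyp2b13 and the genes of low coverage were named after their values were seen. Alternatives covered coverage, the prior, limma on log2 ratios, the size of difference, window shape, a replicate block and each library left out.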

Additional observations from a re-analysis of the deposited data

How the results depend on the processing

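The count of called P450 features stayed at 0 for regions under 14 alternatives and for gene-end windows under 13. For tiles it was 0 except without KO replicate 2, where 1 tile, near Cyp2b10, was called (0 to 1 over the left-out libraries). With a library left out, its genotype has 1 library, which is assumed to vary like those of the other genotype and like other features. For CpGs it was 0 except in limma on log2 ratios, where 1, in Cyp2j5, was called, both without the replicate block and with it (1; adjusted p = 0.0146 with the block). The mean P450 difference of 0.488 points is the same by construction with the replicate block (0.488), ranged from 0.162 to 0.815 over the left-out libraries, and was -0.872 with CpGs weighted by reads and -0.0218 with at least 20 reads per CpG. The replicate block changed no other P450 call, and the replicate numbers did not pair the libraries (correlation of same-numbered deviations -0.0045 for regions and -0.0084 for tiles).

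Counts over all features moved more. Called tiles numbered 129, against 64 at a minimum difference of 20 points, 77 with at least 20 reads, 0 in limma, 3 in limma with the block, and 114 to 283 over the left-out libraries. Called gene-end windows numbered 1, against 0 to 6 under other tests and thresholds and 7 to 31 over the left-out libraries. Called regions numbered 0, against 11 in limma with the block and 2 without KO replicate 2. Called CpGs numbered 102, against 9 with the prior from all features, 383 in limma, 351 with the block and 0 without any 1 of the libraries. The cause of these shifts was not tested.

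The 5 named P450 tiles kept their sign under all alternatives that gave them a value (12 or 13 each), as did 5 of the 10 named regions. The sign of Cyp4f16, Cyp2d11, Cyp3a44 and Cyp4f15 turned with 10 kb on either side (0.537, -1.08, -0.719 and -0.65 points), and that of Cyp4b1 with at least 20 reads (-1.41 points). With a minimum of 20 points the second Alas1 tile and the Cyp7a1 tile were not called. Depth limits single CpGs, and 5 P450 genes had no analysed CpG.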
